A study of Mus musculus with 9 samples.

Results

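Genes that lie downstream of p53 or belong to the Gadd45 family were examined in mouse liver 6 h after an acetaminophen (APAP) overdose. The overdose was given with and without adipose-derived mesenchymal stromal cells (AMSCs). The genes were Cdkn1a, Mdm2, Ccng1, Btg2, Plk2, Phlda3, Trp53inp1, Gadd45a, Gadd45b and Gadd45g, taken by name, and they are 10 of the 54532 genes in the RNA-seq table. All livers came from male C57BL/6 mice of 5 to 7 weeks, with 3 libraries in each of 3 groups. The NC group held normal control mice. The study's methods give an overnight fast for all animals ahead of APAP and do not say whether the NC mice, which received none, are included, so a part of the fast in comparisons with the NC group was not tested. The APAP group, which the study names the vehicle group, was given 500 mg/kg APAP by intraperitoneal injection after an overnight fast. The AMSC group received the same fast and dose and, directly after APAP, 200000 AMSCs through the tail vein. The AMSCs came from the inguinal fat of C57BL/6 mice, the strain of the recipients, so that transcripts of donor and host cells cannot be told apart. The AMSC libraries are numbered 2, 3 and 4, and the others 1, 2 and 3.

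p53 is a transcription factor that accumulates after DNA damage and other stress and turns on genes that halt the cell cycle, repair DNA or kill the cell. Its target Mdm2 is a ubiquitin ligase that marks p53 for destruction, which closes a feedback loop, and its target Cdkn1a encodes p21, an inhibitor of cyclin-dependent kinases. The Gadd45 proteins are small acidic stress sensors that bind p21, PCNA and the kinase Map3k4, which lies upstream of p38 and JNK. Several of these genes are also induced without p53, by stress kinases and early transcription factors. In the liver, toxic APAP metabolites deplete glutathione, damage mitochondria and activate JNK, and the surviving hepatocytes later re-enter the cell cycle.

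Levels are given as FPKM, the fragments on a gene scaled to its length and to the library, which can be compared between genes. The libraries held 13418921 to 16210930 reads on genes. At this depth Cdkn1a in the NC group rested on 11 to 30 reads, Gadd45b in the NC group on 21 to 29 and Phlda3 over all libraries on 9 to 35, and every other gene on at least 39 reads. The hepatocyte markers Alb, Ttr, Apoa1, Cps1, Hnf4a and Tat summed to 37986 to 40947 FPKM in the NC group, 54512 to 63629 in the APAP group and 48614 to 51287 in mice given AMSCs. Of 8 macrophage and Kupffer cell markers the sum ran from 76.5 to 159.5 FPKM in the NC group, 107.2 to 269.9 in the APAP group and 62.7 to 97.4 where AMSCs were given. The 6 neutrophil markers summed to at most 1.91 FPKM in the NC group, with Ly6g at 0 there, and to 7.52 to 34.8 and 4.24 to 5.98 in the APAP and AMSC groups. The 6 mesenchymal stromal markers summed to 14.4 to 25.1, 17.8 to 33.9 and 14.0 to 16.6 FPKM in the NC, APAP and AMSC groups, so every AMSC library lay below every APAP library. In bulk tissue, fewer cells of a type and less RNA per cell cannot be told apart.

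All 10 genes are protein coding, and coordinates are those of the file on GRCm38. The promoter stretches of 7 genes are shown, those of the Gadd45 family, those with the largest folds after APAP (Cdkn1a and Btg2) and those called lower with AMSCs (Mdm2 and Plk2). They come from the RefSeq promoter table for GRCm38.p6, which holds 10 promoters of 9 of the genes; Trp53inp1 has no entry. Each is the 200 bases before the gene start, read 5′ to 3′ on the gene's strand. For Cdkn1a, which has a further start in that table, the stretch lies before the first. Capitals mark the cAMP response element (TGACGTCA), its core (TGACG), the E-box (CACGTG), the CCAAT box (CCAAT), the TATA box (TATAAA) and, by name, the p53 decamer, each searched on both strands. The core lies within each full cAMP response element.
Cdkn1a: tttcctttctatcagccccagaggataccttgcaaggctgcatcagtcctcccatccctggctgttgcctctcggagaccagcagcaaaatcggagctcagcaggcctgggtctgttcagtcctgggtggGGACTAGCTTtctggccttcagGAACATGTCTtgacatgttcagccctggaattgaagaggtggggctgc
Btg2: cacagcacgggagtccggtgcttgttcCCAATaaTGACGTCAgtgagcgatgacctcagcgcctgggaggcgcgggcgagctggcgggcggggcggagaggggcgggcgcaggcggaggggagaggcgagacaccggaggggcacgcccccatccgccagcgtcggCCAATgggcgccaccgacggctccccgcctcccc
Mdm2: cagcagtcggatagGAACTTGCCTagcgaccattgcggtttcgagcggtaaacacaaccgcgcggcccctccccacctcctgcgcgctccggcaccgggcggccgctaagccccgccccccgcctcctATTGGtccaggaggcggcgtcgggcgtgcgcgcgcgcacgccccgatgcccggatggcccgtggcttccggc
Plk2: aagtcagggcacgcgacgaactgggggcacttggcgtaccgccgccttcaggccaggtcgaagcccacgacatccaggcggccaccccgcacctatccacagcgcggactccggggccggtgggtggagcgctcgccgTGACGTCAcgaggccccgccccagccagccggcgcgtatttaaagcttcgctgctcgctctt
Gadd45a: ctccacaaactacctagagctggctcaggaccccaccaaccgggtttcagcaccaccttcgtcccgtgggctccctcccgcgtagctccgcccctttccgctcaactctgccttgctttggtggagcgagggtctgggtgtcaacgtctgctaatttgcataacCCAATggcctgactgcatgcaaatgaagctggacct
Gadd45b: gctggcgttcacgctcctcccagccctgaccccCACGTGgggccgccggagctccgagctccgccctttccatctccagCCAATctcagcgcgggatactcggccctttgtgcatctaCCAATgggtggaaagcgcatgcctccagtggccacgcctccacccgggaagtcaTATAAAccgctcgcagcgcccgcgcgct
Gadd45g: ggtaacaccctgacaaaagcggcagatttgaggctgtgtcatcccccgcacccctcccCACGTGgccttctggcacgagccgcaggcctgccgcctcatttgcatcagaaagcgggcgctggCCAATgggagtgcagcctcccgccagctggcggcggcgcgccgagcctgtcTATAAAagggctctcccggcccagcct
These stretches lie at chr17:29090776-29090975 on the plus strand (Cdkn1a), chr1:134079156-134079355 on the minus strand (Btg2), chr10:117710759-117710958 on the minus strand (Mdm2), chr13:110394844-110395043 on the plus strand (Plk2), chr6:67037458-67037657 on the minus strand (Gadd45a), chr10:80929873-80930072 on the plus strand (Gadd45b) and chr13:51846475-51846674 on the plus strand (Gadd45g).

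The Cdkn1a stretch held p53 decamers that begin 70 and 48 bases before the start, and that of Mdm2 held one at 186 bases. Over whole windows of 300 bases, the decamer was found in 4 of the 10 promoters, those of Gadd45a, Mdm2, Ccng1 and the first start of Cdkn1a, and in 8.36% of all 32851 promoters. That of Gadd45a lay beyond the stretch printed. The other Cdkn1a promoter, whose start lies 2793 bases downstream of the gene start, is not printed and held no decamer. The cAMP response element was found before Btg2 (166 bases) and Plk2 (62 bases), and in 1.79% of all promoters, while its core was found in 3 of the 10, with Mdm2 as the third gene, and in 20.8% of all. Gadd45b and Gadd45g both carried an E-box, at 167 and 142 bases, and a TATA box, at 28 and 27 bases. The E-box stood in 7.15% and the TATA box in 13.6% of all promoters. Gadd45a held neither of them, and its stretch held a CCAAT box at 36 bases and a GC box. The CCAAT box was in 6 of the 10 and in 37.4% of all promoters, the GC box (GGGCGG, not in capitals) in 7 of the 10 and in 35.7%, and the AP-1 motif (TGANTCA) in 0 of the 10 and in 7.81%. These are matches of letters in a window and say nothing of binding.

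In untreated liver the genes ranged from the upper to the lowest levels of all genes tested. Gadd45g led with 16.8 ± 6.96 FPKM (SD, n = 3), followed by Ccng1 at 10.2 ± 1.13, a pair whose libraries overlapped. Mdm2 (4.91 ± 0.450), Trp53inp1 (4.54 ± 1.19) and Btg2 (2.95 ± 0.532) came next, and Mdm2 overlapped Trp53inp1. Gadd45a (1.58 ± 0.420) and Plk2 (1.54 ± 0.430) overlapped as well, and Gadd45b (0.921 ± 0.134), Phlda3 (0.513 ± 0.208) and Cdkn1a (0.301 ± 0.164) closed the order, with overlapping libraries of Phlda3 and Cdkn1a. Among the 9699 genes tested Gadd45g ranked 2055, Ccng1 2985, Mdm2 4897 and Cdkn1a 9637.

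After APAP the order was another. Btg2 led with 285.8 ± 144.5 FPKM and its libraries lay above those of Gadd45g (99.5 ± 36.8). From Gadd45g downwards through Trp53inp1 (73.7 ± 28.4), Gadd45a (67.9 ± 24.2), Cdkn1a (63.0 ± 19.4), Gadd45b (46.5 ± 6.60) and Mdm2 (36.7 ± 11.5) each gene overlapped its neighbour. Ccng1 (6.93 ± 1.35) and Plk2 (6.48 ± 0.168) followed, also overlapping, and Phlda3 was last at 0.909 ± 0.332. Cdkn1a now ranked 771 and Btg2 213 among the genes tested. With AMSCs, Gadd45g led at 295.2 ± 50.3 FPKM and rank 193, above Btg2 (134.6 ± 34.5), and both were apart from their neighbours. Summed over the 10 genes, the level ran from 34.6 to 53.8 FPKM in the NC group, 414.4 to 927.8 after APAP alone and 533.8 to 756.1 with AMSCs.

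**Figure D1:**
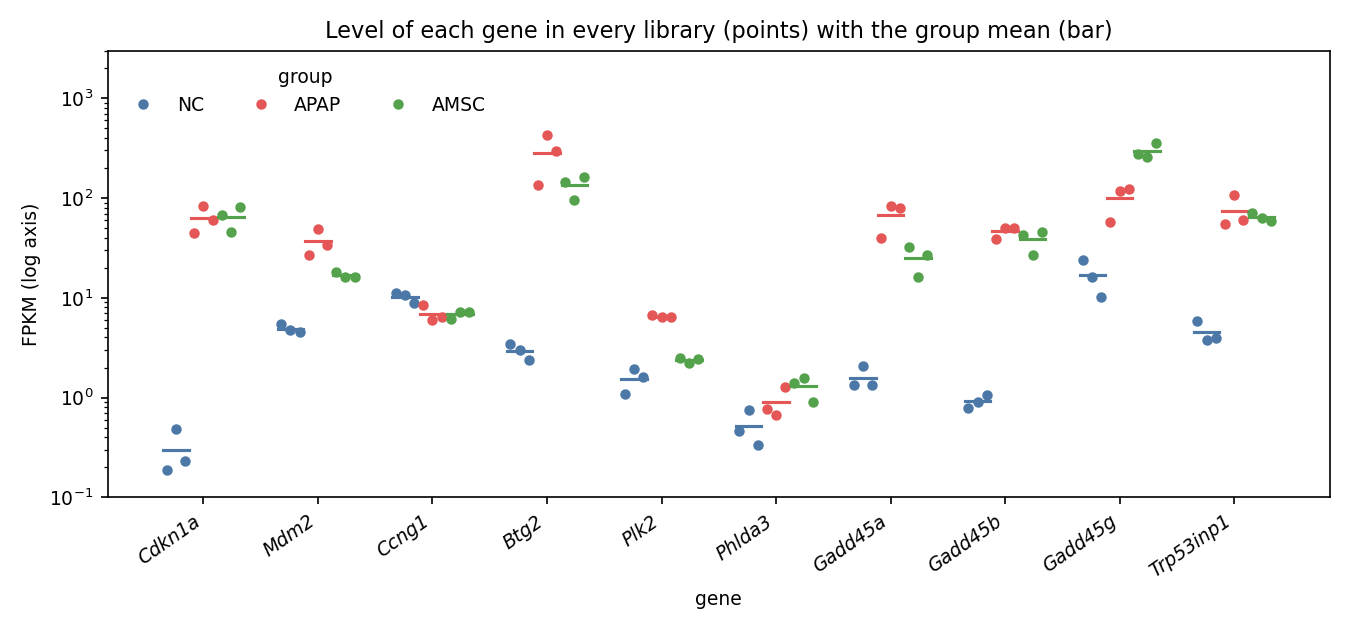
FPKM (log axis) of the 10 genes in every library, with points for libraries in the order of their replicate number and a bar for the group mean. Cdkn1a lies below 1 FPKM in every NC library and above 40 in every other library, Gadd45g is highest in the AMSC group, and Phlda3 reaches 1.58 FPKM at most.

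The APAP group was compared with the NC group to find which of these genes the overdose changed. Of the 9 genes tested, 8 were called higher and 0 lower, against 5.09% called higher and 2.8% called lower of all 9699 genes tested. Called means that the adjusted p in limma did not exceed 0.05 and that the log2 fold change, up or down, was 1 or more. At an unadjusted p under 0.05, 1 of the 9 was lower (Ccng1), against 19.8% of all genes tested, and 8 were higher, against 19.3%, and voom on the reads recovered from FPKM also called 8 higher and 0 lower. All 8 stood higher in every APAP library than in any NC library, as did 20.9% of all genes tested, and 1, Ccng1, stood lower without overlap, as did 22.3%. The median log2 fold change was -0.0043 over all genes tested. Phlda3 had a mean under 1 FPKM over the 9 libraries and was not tested. Cdkn1a and Gadd45b, with NC means of 0.301 and 0.921 FPKM, passed this filter through the groups in which they were high.

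Cdkn1a, the p21 gene, stood at 0.186, 0.488 and 0.229 FPKM in NC replicates 1, 2 and 3 and at 44.7, 83.3 and 60.9 in APAP replicates 1, 2 and 3. The groups were far apart and the mean was 209.3-fold higher after APAP, or 5.58 on the log2 scale (SE 0.22, adjusted p = 1.41e-05). Because 1 FPKM was added before taking logs, the log2 value understates the change of so low a gene, and with 0.1 added it was 7.33. Exons of Cdkn1a (chr17:29090976-29100727, plus strand) share 273 bases with AC167363.2 on the other strand, and the strand setting of the counting is not given. That gene was at 0 in the NC group and at 0.570 to 1.39 FPKM in the APAP group, far below Cdkn1a.

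Btg2, an antiproliferative protein that recruits the deadenylation machinery to mRNAs, stood at 3.45, 3.01 and 2.39 FPKM in the NC libraries and at 135.8, 424.2 and 297.4 in the APAP libraries. The change was 6.04 on the log2 scale (SE 0.37, adjusted p = 8.04e-05). The mean was 96.8-fold higher, less than that of Cdkn1a, although 1 FPKM added before taking logs turns this order. The APAP libraries themselves spread widely, with replicate 1 lowest. Trp53inp1, a stress protein of p53 phosphorylation and autophagy, went from 5.91, 3.78 and 3.93 to 54.6, 106.3 and 60.3 FPKM, by 3.71 on the log2 scale (SE 0.27, adjusted p = 0.000158).

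Mdm2 stood at 5.41, 4.79 and 4.54 FPKM in the NC libraries and at 27.1, 49.5 and 33.6 in the APAP libraries, 7.48-fold higher on average (log2 2.63, SE 0.21, adjusted p = 0.000233). Plk2, a polo-like kinase of centriole duplication, stood at 1.08, 1.93 and 1.62 and then at 6.67, 6.36 and 6.41 FPKM (log2 1.57, SE 0.15, adjusted p = 0.000451). Its APAP libraries differed least of all 10 genes, with a coefficient of variation of 2.59% against 50.6% for Btg2. Both genes stood apart between the groups in every library.

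The 3 Gadd45 genes rose together but from different levels. Gadd45a stood at 1.33, 2.07 and 1.35 FPKM in the NC libraries and at 40.1, 83.7 and 80.0 in the APAP libraries (log2 4.68, SE 0.28, adjusted p = 6.69e-05). Gadd45b stood at 0.792, 0.910 and 1.06 and then at 38.9, 50.5 and 50.1 FPKM (log2 4.62, SE 0.14, adjusted p = 4.67e-06). Gadd45g, the most abundant of the family in untreated liver, stood at 24.1, 16.1 and 10.2 and then at 57.3, 117.4 and 124.0 FPKM (log2 2.50, SE 0.37, adjusted p = 0.00319). Exons of Gadd45a share 337 bases with E230016M11Rik on the other strand, which was at 0.0693 to 0.256 FPKM in all libraries.

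Ccng1, or cyclin G1, a target of p53 that binds a phosphatase and Mdm2, did not follow. It stood at 11.1, 10.6 and 8.92 FPKM in the NC libraries and at 8.47, 5.93 and 6.40 in the APAP libraries, so every APAP library was below every NC library. The log2 fold change was -0.50 (SE 0.15), the adjusted p of 0.0475 passed its threshold and the fold minimum was missed. By adjusted p alone 13.1% of all genes tested were lower, and leaving out an NC library raised that p to 0.160 (replicate 1), 0.148 (replicate 2) or 0.0508 (replicate 3). Without APAP replicates 2 or 3 it was 0.142 and 0.113, without APAP replicate 1 it was 0.0140, and with all genes above 0 tested it was 0.1245. Phlda3, which competes with Akt for membrane lipids, overlapped between the groups, at 0.461, 0.742 and 0.335 and at 0.765, 0.673 and 1.29 FPKM.

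All 8 calls held in every alternative in which the gene was tested and without each library in turn. APAP replicate 1 was the lowest of its group for 7 of the 10 genes (Cdkn1a, Mdm2, Btg2, the 3 Gadd45 genes and Trp53inp1) and replicate 2 the highest for 6. Replicate 1 also had the highest neutrophil (34.8 FPKM), endothelial (60.3) and stellate cell sums (55.5) and the lowest hepatocyte sum of the 3. Its mesenchymal stromal (33.9) and lymphocyte sums (2.63) were the highest as well. The macrophage and Kupffer cell sum was highest in replicate 3 (269.9, against 220.9 in replicate 1), and the cholangiocyte sum was lowest in replicate 1 (23.0). The part of these in the spread of the 7 genes was not tested. Markers of other cells rose beside the 8 genes. The 4 cholangiocyte markers summed to 2.43 to 4.96 FPKM in the NC group and 23.0 to 37.6 after APAP. Of these, 3 were tested, with a median log2 change of 0.82, and 1 was called, Sox9 (log2 3.497). The neutrophil markers S100a9 (2.95), S100a8 (2.11) and Retnlg (1.74), the macrophage markers Cd68 (1.38) and Timd4 (1.02) and Ly6a (1.002) of the stromal list were called higher too. Their part in the result was not tested.

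The AMSC group was compared with the APAP group to find which of these genes differed where the cells had been given. Of the 9 genes tested, Gadd45g was called higher, against 0.742% of all genes tested, and Mdm2 and Plk2 were called lower, against 1.22%. Gadd45g stood higher without overlap, as did 14.6% of all genes tested, and Mdm2, Plk2 and Gadd45a stood lower without overlap, as did 12.4%. The other 5 genes tested overlapped between the groups. At an unadjusted p under 0.05, 1 was higher (Gadd45g), against 10.6%, and 4 were lower (Mdm2, Plk2, Gadd45a and Btg2), against 10.3%.

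Gadd45g stood at 274.5, 258.5 and 352.6 FPKM in AMSC replicates 2, 3 and 4, against 57.3, 117.4 and 124.0 in the APAP libraries. All 3 lay above the APAP range. The mean was 2.97-fold higher with AMSCs (log2 1.62, SE 0.29, adjusted p = 0.0320). Plk2 stood at 6.67, 6.36 and 6.41 FPKM after APAP and at 2.47, 2.24 and 2.41 with AMSCs, and its mean fell by 63.4% (log2 -1.15, SE 0.11, adjusted p = 0.00408). Both groups of Plk2 were tight and lay well apart.

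Mdm2 stood at 18.2, 16.3 and 16.0 FPKM in the AMSC libraries, each below the lowest APAP library at 27.1. The mean fell by 54.1%, or -1.04 on the log2 scale (SE 0.21, adjusted p = 0.0420), just past both thresholds. Gadd45a stood at 32.6, 16.2 and 26.6 FPKM in the AMSC libraries and at 40.1 or more after APAP alone. Its log2 difference of -1.38 (95% interval -2.16 to -0.60) was larger than that of Mdm2, with a larger SE of 0.34, and the adjusted p of 0.0699 missed the threshold.

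Btg2 stood at 143.7, 96.4 and 163.5 FPKM with AMSCs, and the upper 2 of these exceeded the lowest APAP library at 135.8. Its log2 difference was -0.97 (95% interval -1.89 to -0.04, adjusted p = 0.222). Cdkn1a stood at 67.2, 45.5 and 82.1 FPKM, all within the APAP range of 44.7 to 83.3. Its log2 difference was 0.05 (95% interval -0.59 to 0.69, adjusted p = 0.947). The interval for p21 mRNA thus covered differences in either direction.

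Gadd45b (42.8, 26.7 and 45.9 FPKM with AMSCs) had a log2 difference of -0.30 (95% interval -0.81 to 0.22, adjusted p = 0.503). Trp53inp1 (70.6, 63.0 and 58.8 FPKM) had one of -0.14 (-0.71 to 0.43, adjusted p = 0.802). Ccng1 (6.10, 7.19 and 7.18 FPKM) had one of -0.01 (-0.36 to 0.34, adjusted p = 0.982). The groups overlapped for all 3 genes. Phlda3, not tested, stood at 1.41, 1.58 and 0.896 FPKM and overlapped as well.

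**Figure D2:**
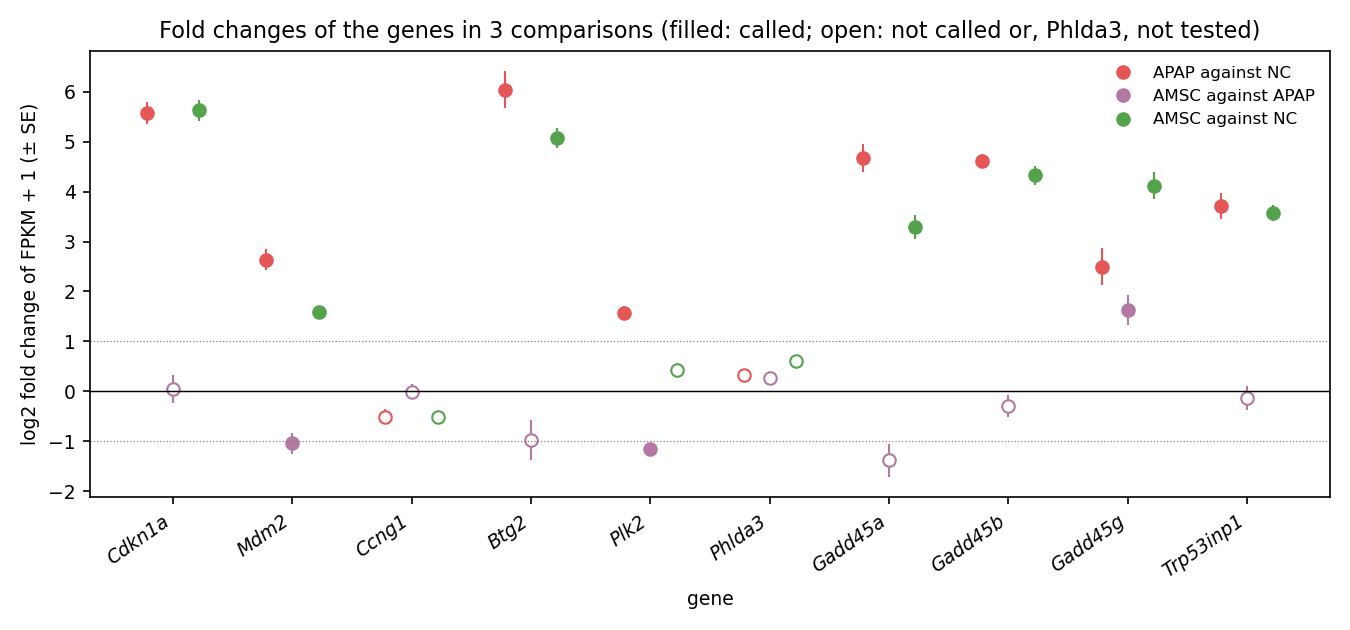
Log2 fold changes of FPKM + 1 with their SE for the 10 genes in the 3 comparisons, with filled points for called genes, open points for the others and dotted lines at a log2 fold change of 1 in either direction. Phlda3 was not tested and has no SE. Cdkn1a lies near 0 between AMSC and APAP while Gadd45g lies at 1.62 and Plk2, Mdm2 and Gadd45a lie below -1.

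The calls between AMSC and APAP rest on few libraries. Plk2 was called in every alternative in which it was tested, with log2 values between -1.44 and -1.09. Mdm2 lost its call without APAP replicate 2 (-0.80), APAP replicate 3 (adjusted p = 0.1002) or AMSC replicates 2, 3 or 4 (adjusted p = 0.0987, 0.144 and 0.139), and Gadd45g without APAP replicate 3 (adjusted p = 0.0540) or AMSC replicates 2, 3 or 4 (0.0835, 0.0957 and 0.116). Without APAP replicate 1, the library with the highest neutrophil sum, 5 genes were called in place of 3, with Btg2 (-1.43, adjusted p = 0.0335) and Gadd45a (-1.72, adjusted p = 0.0211) added. The sign of Cdkn1a turned without APAP replicate 1 (-0.17) or AMSC replicate 4 (-0.14), that of Ccng1 without APAP replicate 1 (0.12) or AMSC replicate 2 (0.06), and that of Trp53inp1 without APAP replicate 2 (0.15).

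Markers of other cells moved in the same comparison. All 8 macrophage and Kupffer cell markers had a lower mean log2 level with AMSCs than with APAP alone, with Cd68 called (log2 -1.24, adjusted p = 0.0267), and the sums were 62.7 to 97.4 against 107.2 to 269.9 FPKM. The 6 endothelial markers tested of 7 also lay lower, with sums over all 7 of 19.7 to 21.5 against 21.9 to 60.3 FPKM, and 0 of them were called by limma. The 4 cholangiocyte markers summed to 5.24 to 5.62 against 23.0 to 37.6 FPKM. Of these, 3 were tested, with a median log2 change of -0.51, and 1 was called, Sox9 (log2 -2.76, adjusted p = 0.00115). The 6 hepatocyte markers also summed lower, to 48614 to 51287 against 54512 to 63629 FPKM, with a median log2 change of 0.05, 3 of them higher and 3 lower. Mdm2, Plk2 and Gadd45a moved the same way as these sums and Gadd45g the other way, and their part in the result was not tested.

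Within the Gadd45 family the balance shifted. Gadd45g made up 85.7 ± 5.63% of the summed FPKM of the 3 genes in the NC group, 45.8 ± 3.46% in the APAP group and 82.4 ± 3.69% with AMSCs (SD, n = 3). Gadd45a went from 8.86 ± 3.29% to 31.4 ± 1.93% with APAP and stood at 6.98 ± 2.06% with AMSCs, and Gadd45b at 5.40 ± 2.75%, 22.8 ± 4.997% and 10.6 ± 1.70%. The sum itself was 19.3 ± 6.79 FPKM in the NC group, 214.0 ± 67.3 after APAP and 358.8 ± 62.3 with AMSCs. The NC and AMSC shares of Gadd45g lay within their spread of each other while the sums lay far apart.

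The ratio of Gadd45g to Gadd45a, chosen after its values were seen, does not depend on how a library is scaled. It was 18.2, 7.81 and 7.56 in the NC libraries, 1.43, 1.40 and 1.55 in the APAP libraries and 8.43, 15.9 and 13.3 in the AMSC libraries. The APAP libraries lay apart from all others and within a narrow range, and those of the NC and AMSC groups overlapped. On the log2 scale the mean ratio was 2.81 lower in APAP than in NC (difference -2.81) and 3.05 higher in AMSC than in APAP. Both had an exact two-sided permutation p = 0.1, the smallest this test gives for 3 against 3 libraries, so that it cannot reach 0.05. Since the ratio was chosen with its values known, these p are no independent support. Between AMSC and NC the difference was 0.24 (exact permutation p = 0.8).

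**Figure D3:**
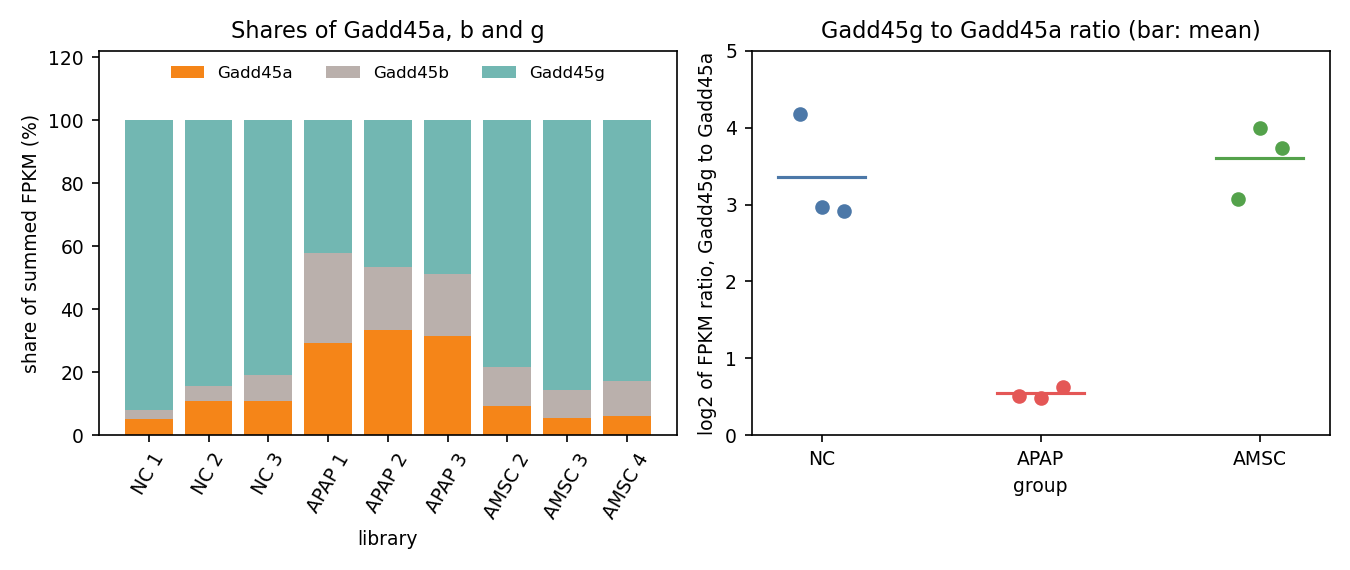
Left, share of the summed FPKM of Gadd45a, Gadd45b and Gadd45g held by each gene in every library, and right, log2 of the FPKM ratio of Gadd45g to Gadd45a, with a point per library and a bar for the group mean. The 3 APAP libraries have ratios of 1.40 to 1.55, and every other library has at least 7.56.

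The AMSC group was compared with the NC group to find which genes were still away from the level of untreated liver. It shares the NC libraries with the first comparison and is given beside it as a description. Of the 9 genes tested, 7 were called higher, against 3.92% of all genes tested, and 0 lower, against 2.09%. At an unadjusted p under 0.05, 8 were higher, against 20.2% of all genes tested, and 1 (Ccng1) lower, against 17.8%, and voom called 7 higher and 0 lower. Plk2 was not called, with levels of 2.47, 2.24 and 2.41 FPKM against 1.08, 1.93 and 1.62 (log2 0.42, 95% interval 0.09 to 0.75, adjusted p = 0.0628). Every AMSC library of Plk2 was nonetheless above every NC library, which brings to 8 the genes higher without overlap, as were 23.2% of all genes tested.

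Cdkn1a was 215.7-fold higher than in the NC group (log2 5.63, adjusted p = 2.29e-06) and Btg2 45.6-fold (log2 5.07, adjusted p = 2.53e-06). Gadd45b was 41.8-fold higher (log2 4.33, adjusted p = 5.47e-06), Gadd45g 17.6-fold (log2 4.12, adjusted p = 4.23e-05), Gadd45a 15.9-fold (log2 3.30, adjusted p = 7.44e-05) and Trp53inp1 14.1-fold (log2 3.57, adjusted p = 5.01e-06). Mdm2 was the least raised of the 7, at 3.44-fold (log2 1.60, adjusted p = 4.84e-05). Ccng1 was again lower without overlap, as were 20.3% of all genes tested, at -0.51 on the log2 scale (adjusted p = 0.0160), and by adjusted p alone 11.9% of all genes tested were lower. Leaving out NC replicate 1 or 2 or AMSC replicate 2 raised the p of Ccng1 to 0.0667, 0.0619 and 0.0558. Phlda3 lay higher without overlap in the AMSC group at 0.896 to 1.58 FPKM, against 0.335 to 0.742, on 35 reads at most.

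The rest of the p53 network was read from lists of genes, with all genes of each list counted. At an unadjusted p under 0.05, 19.3% of all genes tested were higher and 19.8% lower between APAP and NC. The shares were 10.6% and 10.3% between AMSC and APAP and 20.2% and 17.8% between AMSC and NC. Between APAP and NC limma called 5.09% higher and 2.8% lower. Of 12 p53 regulators 7 were tested, and limma called 0 in each of the 3 comparisons. Atm, Atr, Chek1, Chek2 and Trp53bp1 had a mean under 1 FPKM and were not tested, so these counts do not cover them. At an unadjusted p under 0.05, 2 passed between APAP and NC (Ppm1d higher, Trp53 lower), 0 between AMSC and APAP and 2 between AMSC and NC (Ppm1d and Usp7 higher), and voom called 1, Ppm1d, between AMSC and NC. These were named after their values were seen. Trp53 itself had a mean of 3.70 ± 0.181 FPKM in the NC group, 2.49 ± 0.275 after APAP and 3.28 ± 0.726 with AMSCs, with a log2 difference of -0.43 between APAP and NC (adjusted p = 0.0291). Of 10 p53 targets of cell death 6 were tested and 1 was called higher after APAP, Bbc3, the gene of the Bcl2-binding protein Puma (2.43 to 12.6 FPKM, log2 1.97, adjusted p = 0.000415). Bbc3 was also called higher in AMSC against NC (1.53, adjusted p = 7.96e-05) and not in AMSC against APAP (-0.44, adjusted p = 0.198). At an unadjusted p under 0.05, 1 of the 6 was higher (Bbc3) and 1 lower (Aen) between APAP and NC. Aen went from 2.62 to 1.39 FPKM (log2 -0.60, adjusted p = 0.0367) and missed the fold minimum. Between AMSC and APAP Aen passed as higher and Bbc3 as lower, and between AMSC and NC Bbc3 and Fas passed as higher. Aen and Fas were named after their values were seen.

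Of 26 p53 targets of repair and metabolism 13 were tested. Their median log2 fold change between APAP and NC was 0.12, against 3.71 for the 9 genes tested here. The genes and lists were chosen with earlier results of these data known, so these medians are a description and no test. Gdf15, a secreted stress hormone, rose from 2.18 to 431.1 FPKM (log2 7.10, adjusted p = 1.50e-05) and Sesn2, a stress-induced inhibitor of mTORC1 signalling, from 1.31 to 13.6 (log2 2.64, adjusted p = 0.000122). Between AMSC and APAP 1 of the 13 was called, Ddit4, another inhibitor of mTORC1, which rose from 8.79 to 51.9 FPKM (log2 2.43, adjusted p = 0.00115), and Gdf15 was at 169.3 FPKM (log2 -1.47, adjusted p = 0.115). In AMSC against NC, Gdf15 (5.64), Ddit4 (2.99) and Sesn2 (2.68) were called higher. At an unadjusted p under 0.05, 6 of the 13 were higher and 1 (Tigar) lower between APAP and NC, against 19.3% and 19.8% of all genes tested. Tigar, named after its values were seen, went from 3.82 to 2.33 FPKM (log2 -0.53, adjusted p = 0.0155) and missed the fold minimum. Between AMSC and APAP 2 were higher and 3 lower, against 10.6% and 10.3%. Between AMSC and NC 5 were higher and 0 lower, against 20.2% and 17.8%.

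The lists of cell cycle genes held few genes tested, so their counts are small. Of all genes tested, limma called 5.09% higher and 2.8% lower between APAP and NC. The shares were 0.742% and 1.22% between AMSC and APAP and 3.92% and 2.09% between AMSC and NC. At an unadjusted p under 0.05 they were 19.3% and 19.8%, 10.6% and 10.3%, and 20.2% and 17.8% in the same order of comparisons. Of 6 other CDK inhibitors 4 were tested and limma called 0 in each comparison. Cdkn2d, named after its values were seen, was the 1 gene at an unadjusted p under 0.05 in each of them, and voom called it higher between APAP and NC. Of 8 G1 cyclins and their kinases 6 were tested, and Ccnd1, or cyclin D1, was called lower after APAP (4.001 to 1.02 FPKM, log2 -1.32, adjusted p = 0.00559). Cdk4 and Cdk6, partner kinases of cyclin D1 named after their values were seen, missed the fold minimum. Cdk4 stood at 10.6 FPKM in NC and 5.38 after APAP (log2 -0.86, adjusted p = 0.00263), and Cdk6 at 1.67 and 0.809 (log2 -0.55, adjusted p = 0.0305, called lower by voom). Of the 6 genes 1 was higher and 3 lower at an unadjusted p under 0.05 between APAP and NC, 2 were higher between AMSC and APAP and 1 was lower between AMSC and NC, and in the last pair of comparisons limma and voom called 0. With AMSCs Ccnd1 was at 3.60 FPKM (log2 1.14 against APAP, adjusted p = 0.0943). Of 23 S phase and mitosis genes 3 passed the level needed for a test, and limma called 0 of these. At an unadjusted p under 0.05, 2 were higher between APAP and NC, 1 between AMSC and APAP and 3 between AMSC and NC, and voom called 1, Rrm2, higher between AMSC and APAP. Of the 7 kinases that act under Gadd45, all 7 were tested and limma called 0 in each comparison, with 3, 1 and 3 at an unadjusted p under 0.05. Voom called Map2k6, an activator of p38, lower between APAP and NC and higher between AMSC and APAP. Rrm2 and Map2k6 were named after their calls were seen. The kinases had a median log2 fold change of -0.14 between APAP and NC.

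Close relatives of the 10 genes moved in both directions. Of 10 relatives 8 were tested, and between APAP and NC 7 had a positive and 1 a negative log2 change. There 3 were called higher and 1 lower, by limma and by voom, against 5.09% and 2.8% of all genes tested by limma. Of these Ccng2, with an NC mean of 0.772 FPKM, passed the filter through the groups in which it was high. The list was chosen with earlier results of these data known, so the counts are a description and no test. At an unadjusted p under 0.05, 6 were higher and 1 lower, against 19.3% and 19.8%. Plk3, a relative of Plk2, rose from 14.0 to 403.4 FPKM (log2 4.74, adjusted p = 0.000139), Btg1, a relative of Btg2, from 5.25 to 49.9 (log2 2.97, adjusted p = 0.000212) and Ccng2, a relative of Ccng1, from 0.772 to 5.65 (log2 1.91, adjusted p = 0.00013). Trp53inp2, an autophagy protein related to Trp53inp1, fell from 44.0 to 20.7 FPKM (log2 -1.08, adjusted p = 0.00613). The mean of Plk3 after APAP lay far above that of Plk2 (6.48 FPKM). Between AMSC and APAP, Phlda1, a relative of Phlda3, was called lower (65.6 to 14.8 FPKM, log2 -1.95, adjusted p = 0.0345), and voom called Btg1 lower as well. At an unadjusted p under 0.05, 2 were higher and 5 lower, against 10.6% and 10.3% of all genes tested. In AMSC against NC Plk3 (4.06), Btg1 (1.96) and Ccng2 (1.51) were called higher, and voom added Btg3. At an unadjusted p under 0.05, 5 were higher and 0 lower, against 20.2% and 17.8%.

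**Figure D4:**
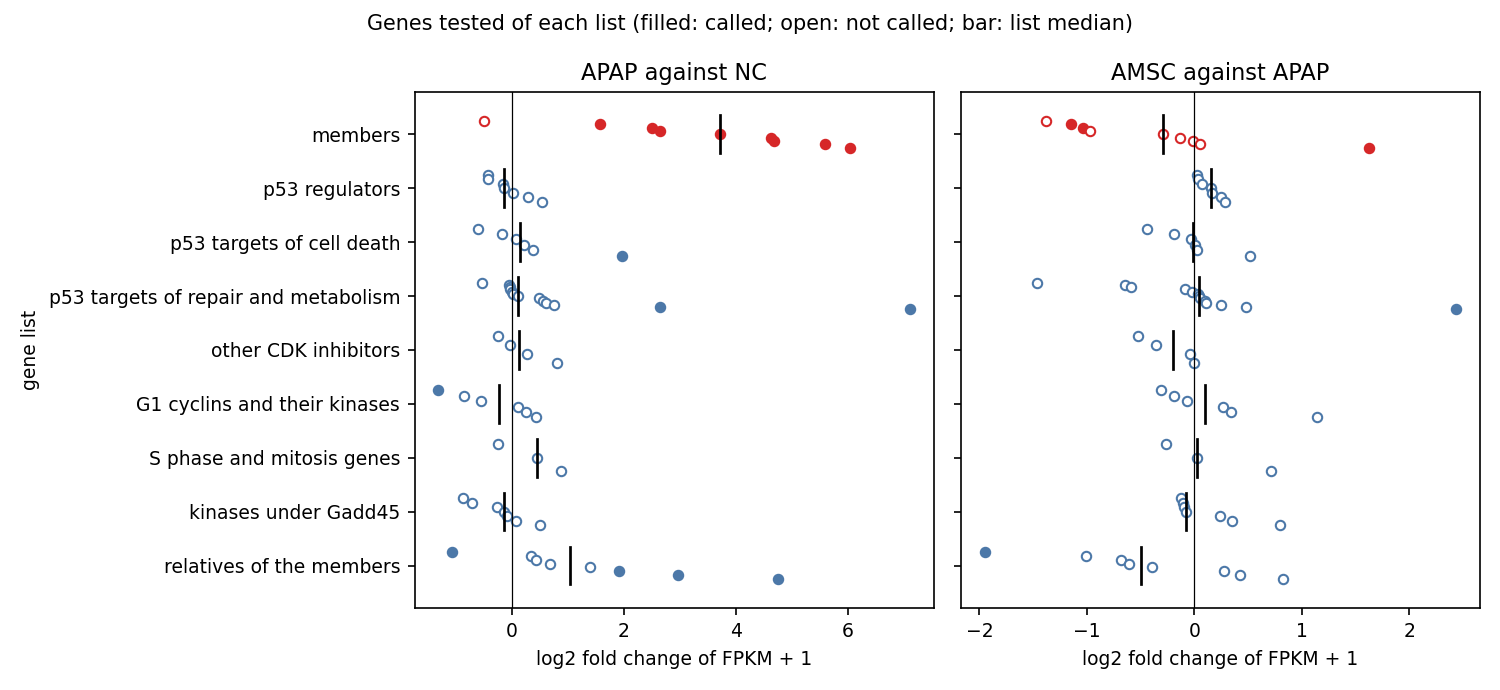
Log2 fold changes of FPKM + 1 of those tested of the 10 genes (members, red) and of each p53 and cell cycle list (blue). Filled points are called genes, open points the others, and a bar marks the list median. The median lies at 3.71 for the 9 genes tested between APAP and NC, and at 1.03 for their relatives, the next highest list. The genes and lists were chosen with earlier results of these data known.

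The genes whose pattern over the 9 libraries was nearest to that of Cdkn1a were Jun, Fos, Maff, Mt2 and Btg2, by the root mean square difference of centred log2 levels. Jun was nearest, with a difference of 0.09 on the log2 scale. It was followed by Fos (0.41), Maff (0.42), the metallothionein Mt2 (0.46) and Btg2 (0.48), and Gadd45b ranked 7 (0.58). With 1 FPKM added before taking logs, Cdkn1a rose by 5.58 between NC and APAP and Jun by 5.49. With 0.1 added Cdkn1a rose by 7.33, so for a gene so low in the NC group these differences depend on the value added. The order with another value was not tested. Jun stood at 4.40 ± 0.829 FPKM in the NC group, 247.9 ± 75.4 after APAP and 272.9 ± 65.7 with AMSCs, so like Cdkn1a it was high in both treated groups. Fos, Jun and Maff encode early transcription factors. Of the other genes examined here, Gadd45a ranked 21 (0.98), Trp53inp1 23 (0.98), Gadd45g 42 (1.31) and Mdm2 105 (1.72). Plk2 ranked 461 (2.25) and Ccng1 8742 (2.91) among the 9699 genes tested.

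The 5 genes nearest to Gadd45g were others. They were the co-chaperone gene Dnajb1 (0.43), the interleukin receptor gene Il1r1 (0.53), the pseudokinase gene Trib3 (0.64), the transcription factor gene Nfil3 (0.66) and the serine synthesis gene Psat1 (0.66). Dnajb1 stood at 7.95 ± 1.87, 41.0 ± 23.5 and 102.8 ± 22.9 FPKM in the NC, APAP and AMSC groups, and Il1r1 at 3.37 ± 0.836, 12.1 ± 4.47 and 53.01 ± 13.7, so that the 3 means had the order of those of Gadd45g. Trp53inp1 ranked 25 (0.82), Gadd45b 83 (1.04) and Gadd45a 280 (1.32), so the sister genes of Gadd45g were not its nearest neighbours. The likeness is a description over 9 libraries that share their groups.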

How the data were processed

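Liver RNA of 9 mice, 3 a group, was sequenced by the study from total RNA with a SMARTER mRNA-Seq kit, and groups were taken from the sample labels. NC replicate 3 carries another date in its title than the other NC libraries, and its title numbers it 1 while its description numbers it 3. The description was used, also for the pairing below. For 54532 genes the authors deposited FPKM values. The aligner, the counter and the strand setting are not given in the sources used here, the processing notes name GRCm38 and mm10, and the authors used DESeq2 for their own comparisons. Of 54495 gene identifiers shared with GENCODE vM21, 53585 (98.33%) had the same coordinates. Multiplying FPKM by length gave whole steps (tolerance 0.1) for 100% of values, and the reads so recovered were scaled by the authors with median-of-ratios size factors. Such a scaling holds the median gene level between groups. Every column of values was mapped to a sample (0 left out).

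Values were taken as log2(FPKM + 1). Genes that averaged 1 FPKM or more over all 9 libraries (9699) were tested with limma 3.58.1 (lmFit, eBayes with trend) in R 4.3.3, with 2 groups a fit. The Benjamini-Hochberg adjustment ran over all genes tested, and a gene was called where its adjusted p did not exceed 0.05 and its absolute log2 fold change was 1 or more. These thresholds follow the study. The study's methods name 3 biological replicates a group. No 2 libraries were alike within sampling noise. Deviations of same-numbered libraries correlated at 0.213, 0.160 and 0.378 between APAP and NC, all above 0.1. This is a hint from the data that the numbers may pair the samples of APAP and NC. The correlations were -0.104 and -0.293 between AMSC and APAP and -0.199 and -0.309 between AMSC and NC, and these give no such hint. The study's methods describe no pairing of mice between groups. The main fits therefore held none, and the replicate block was run as an alternative.

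The 10 genes and all lists were chosen with earlier results of these data known. Named were the 10 genes, up to 4 called genes per list with the largest change, and the 5 genes most like Cdkn1a and Gadd45g. Exceptions are stated. Alternatives were another pseudocount, other filters, quantile normalization, rescaling to total reads, 1 fit of all groups, no trend, voom on recovered reads and leaving out each library. The limma steps were tested on simulated data. Counting error was not modelled apart from the spread between libraries. Python 3.11.15 with numpy 2.4.6, matplotlib 3.10.9 and pandas 2.3.3 drew the figures. Protein sequences of the Gadd45 family were not analysed here.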

Additional observations from a re-analysis of the deposited data

How the results depend on the processing

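Between APAP and NC and between AMSC and NC, no call by both thresholds among the 10 genes changed under any alternative fit in which the gene was tested, and Plk2 was not tested at a mean of at least 5 FPKM. By adjusted p alone, Ccng1 came in as lower in both, which made 9 and 8 genes in place of 8 and 7, and its p ran from 0.0106 to 0.160 and from 0.00418 to 0.287 over the alternatives. Over all genes, 766 were called between APAP and NC, with 478 at a mean of at least 5 FPKM and 1197 by voom on the recovered reads, and 683 to 872 when leaving out 1 library. Between AMSC and NC 583 were called, with 915 at a pseudocount of 0.1 and 968 by voom, and 555 to 627 when leaving out 1 library. At a pseudocount of 0.1 the called genes between APAP and NC numbered 1148. Rescaling to total reads moved the median log2 change of all genes tested from -0.0043 to -0.22 between APAP and NC and from 0.02 to -0.14 between AMSC and NC, and the share of called genes that were higher from 64.5% to 43.3% (361 higher and 473 lower, against 494 and 272) and from 65.2% to 47.6% (311 and 343, against 380 and 203). It kept 8 and 7 of the 10 genes called.

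Between AMSC and APAP the calls depended more on the settings. Over all genes 190 were called, with 21 when all genes above 0 were tested, 102 at a mean of at least 5 FPKM, 296 by voom and 90 to 229 when leaving out 1 library. Of these, the share higher was 37.9% (72 against 118 lower), 19% (4 against 17) with all genes above 0 and 47.1% (48 against 54) at a mean of at least 5 FPKM. Of the 10 genes 3 were called, with 1 (Plk2) when all genes above 0 were tested (Mdm2 adjusted p = 0.179, Gadd45g adjusted p = 0.167), and 1 to 5 when leaving out 1 library. Rescaling to total reads took Mdm2 to -0.97, under the fold minimum, and Ccng1 to 0.046, the other sign. Gadd45a was called with all 9 libraries in 1 fit (adjusted p = 0.0286) and by voom (adjusted p = 0.0440). Leaving out 1 library, Cdkn1a ran from -0.17 to 0.28, Ccng1 from -0.10 to 0.12 and Trp53inp1 from -0.32 to 0.15. The cause was not tested.

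With the replicate block, 781 genes in all were called between APAP and NC, 335 between AMSC and APAP and 611 between AMSC and NC. AMSC and APAP share only 2 numbers, with negative correlations (-0.104 and -0.293), and whether these numbers pair the samples was not tested. Between AMSC and APAP 5 of the 10 genes were called with the block, with Btg2 (-1.58) and Gadd45a (-1.78) added. Cdkn1a was at -0.36 and Ccng1 at 0.090 there. The block changed no other call of the 10 genes, and the adjusted p of Ccng1 between AMSC and NC was 0.287 with it. Depth limits Phlda3 and Cdkn1a in the NC group, with 9 to 35 and 11 to 30 reads.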
